A study of Mus musculus with 25 samples.

Results

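The proteasome subunit genes described here are the 31 genes Psma1 to Psma7, Psmb1 to Psmb7, Psmc1 to Psmc6 and the Psmd genes Psmd1, Psmd2, Psmd3, Psmd4, Psmd6, Psmd7, Psmd8, Psmd11, Psmd12, Psmd13 and Psmd14, taken by gene symbol from the 17596 genes listed in each table. The interferon-induced subunits of the immunoproteasome were kept out of the set and are described apart. All 31 genes passed the filter on low counts, as did 13001 genes in all, and their 281 introns were part of 163337 introns listed. Of these 281 introns, 202 had enough reads to be tested, among 52042 introns tested over all genes.

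The study transplanted 4 mouse tumor models of triple-negative breast cancer, each begun in a genetically engineered mouse, into the mammary gland of female mice that were 4 to 5 weeks old, and gave the mice H3B-8800 or vehicle daily. The hosts were Balb/c mice for T11 and 2208L and C57BL/6 mice for the other models. By the labels, the responder models were PyMT-M and 2208L, and the nonresponders T11 and AT3. H3B-8800 is an oral splicing modulator: its target SF3B, within the U2 snRNP, helps to select the branch point where splicing begins. The polyadenylated RNA of bulk tumors was sequenced for 4 vehicle and 4 H3B-8800 tumors of PyMT-M, 3 vehicle and 2 H3B-8800 tumors of AT3, and 3 of each treatment for 2208L and T11. All mice carried an established graft of the same model as their control, so no group is normal mammary tissue. Whole tumors hold stroma and immune cells too, so fewer cells of a type and less RNA per cell cannot be told apart here.

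The proteasome is the protease that degrades proteins tagged with ubiquitin. Its core particle is a barrel with outer alpha rings, which gate the entrance, and inner beta rings, of which the subunits encoded by Psmb5, Psmb6 and Psmb7 carry the catalytic sites. A regulatory particle caps the core: the ATPases encoded by the Psmc genes unfold substrates, base subunits such as those of Psmd2 and Psmd4 bind ubiquitin or its carriers, and the lid holds the deubiquitinase encoded by Psmd14. Because the subunits are needed together, their genes are broadly expressed in dividing cells and are known to be regulated as a group.

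The results below turn on introns that stayed in the RNA with H3B-8800, so the ends of a few such introns are shown, next to an intron of the same family that was not called as retained more. Each line gives the last 60 bases of an intron, 5′ to 3′ on the strand of the gene, ending in the AG of the 3′ splice site, with the longest run of C and T within the last 40 bases in capitals. The sequences were read from GENCODE M21 transcripts of GRCm38 (mm10) that keep the intron and code for no protein. The 4 introns at the top were retained more with H3B-8800 in PyMT-M, AT3 and 2208L, and Psmd3 intron 5 in none of them.
Psmd3 intron 9, chr11:98694078-98694137, plus strand: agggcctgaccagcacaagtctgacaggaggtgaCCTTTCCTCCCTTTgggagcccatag
Psmd4 intron 8, chr3:95032985-95033044, minus strand: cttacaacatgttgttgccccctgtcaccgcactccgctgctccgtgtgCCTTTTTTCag
Psmd4 intron 3, chr3:95035325-95035384, minus strand: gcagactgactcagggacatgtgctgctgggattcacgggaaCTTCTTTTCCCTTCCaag
Psmd2 intron 1, chr16:20652184-20652243, plus strand: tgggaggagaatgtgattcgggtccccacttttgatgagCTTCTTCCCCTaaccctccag
Psmd3 intron 5, chr11:98690856-98690915, plus strand: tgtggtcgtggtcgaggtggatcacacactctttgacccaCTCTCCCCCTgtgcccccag

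Sequence from a transcript of the gene that keeps the intron, coding or not, was at hand for 31 introns of the family. All of them begin with GT and end with AG, and 25 of them were tested. In the last 40 bases, C and T made up a median of 61.3% in the 8 introns retained more in all 3 models, 67.5% in the 3 retained more in none, and 62.5% over the 25. The ranges overlapped, at 55% to 72.5% for the 8 and 57.5% to 72.5% for the 3. Across the 25 introns, which share libraries and in part genes, the Spearman correlation of this percent with the mean rise in retention was 0.31, given as a description.

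Libraries held 9820825 to 19700955 reads spliced across introns and 858362 to 5684308 reads inside introns. Gene level is the sum of spliced reads over a gene's introns, in CPM (a gene's counts scaled to the same total in each library), and retention is the percent of the reads overlapping an intron that lie inside it. Spliced reads are overlapping minus intronic reads. Whether reads across an exon-intron edge count as intronic is not given, so unspliced reads of that kind may be among the spliced reads. In T11 the labels ran against the effect seen in the other models: over all tested introns, retention in the H3B-8800 libraries, as labelled, was lower in 19.6% and higher in 0.761%. T11 groups are therefore called by their labels throughout, and T11 is given apart from the other models. The summed level of 13 mammary epithelial markers was 3372 to 7207 CPM in PyMT-M and 2208L and 106.8 to 535.8 CPM in T11 and AT3, where Cdh1 stood at 0 to 2.89 CPM. The 17 muscle markers summed to 8653 CPM in T11 replicate 3 labelled vehicle, 820 CPM in T11 replicate 2 labelled H3B-8800 and 5625 CPM in 2208L vehicle replicate 1. In PyMT-M they summed to 549, 330, 4.33 and 7.33 CPM with H3B-8800 and 6.00 to 14.4 CPM with vehicle. The 8 B cell markers summed to 164.3 CPM in T11 replicate 2 labelled H3B-8800 and 70.6 CPM in AT3 vehicle replicate 2. The 6 libraries above 100 CPM of muscle or 50 CPM of B cell markers are left out of some fits below. The 12 proliferation markers summed to 316 to 758 CPM in PyMT-M with H3B-8800 and 552 to 1047 CPM with vehicle, and to 1274 to 1778 against 1822 to 2194 CPM in 2208L. Macrophage markers moved with the drug: the 8 genes summed to 564.9 to 845.8 CPM with H3B-8800 and 128.9 to 365.6 CPM with vehicle in PyMT-M, and to 1424 to 1640 against 207.03 to 841 CPM in 2208L, in both without overlap. By edgeR's test 7 of the 8 rose in PyMT-M (median log2 change 1.51) and 6 in 2208L (1.71), where 0 were called without the libraries high in muscle or B cell markers (median 1.46). In AT3 the macrophage sums overlapped, at 919.6 to 1017 and 648 to 1025 CPM. Whether these cell type and proliferation differences contribute to the values below was not tested.

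With H3B-8800, introns of proteasome genes were retained more in PyMT-M, AT3 and 2208L. Pooled over all introns of the 31 genes, 8.20%, 5.85%, 7.46% and 8.51% of reads lay inside introns in the 4 PyMT-M vehicle tumors and 19.7%, 16.8%, 14.6% and 16.7% in the 4 treated tumors. In AT3 the values were 4.94%, 8.52% and 5.17% with vehicle and 7.33% and 12.2% with the drug. In 2208L they were 5.17%, 5.18% and 4.75% with vehicle and 7.32%, 6.67% and 6.69% with the drug. The groups were apart in PyMT-M and 2208L, while the lower AT3 treated tumor lay below the highest AT3 vehicle tumor. In the T11 libraries labelled vehicle the values were 4.64%, 8.71% and 5.94%, and in those labelled H3B-8800 4.41%, 5.16% and 6.23%, which overlapped. Without the introns that hold an annotated exon, the same T11 libraries stood at 2.59%, 5.52% and 3.45% against 1.95%, 2.18% and 2.94%, and still overlapped. The mean over PyMT-M tumors was 7.51% with vehicle and 16.9% with the drug for the proteasome genes, beside 14.3% and 23.7% for all genes. AT3 means were 6.21% and 9.78% for the family, beside 11.9% and 17.3%, and those of 2208L were 5.03% and 6.89%, beside 9.47% and 14.02%. The rise in percentage points was thus close to that of all genes in PyMT-M and smaller than it in AT3 and 2208L, a difference that was not tested. Many of the family's intronic reads lay in Psmd13 intron 9, which holds a pseudogene. In 2208L vehicle tumors it held 4373, 2685 and 2386 of 6933, 6400 and 5498 intronic reads. With the drug it held 1686, 2071 and 2532 of 8993, 8600 and 11184. Without introns that hold an annotated exon, PyMT-M means were 3.33% with vehicle and 12.2% with the drug. Those of AT3 were 3.32% and 6.97%, and those of 2208L 2.05% and 4.22%, with no such value for all genes.

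**Figure D1:**
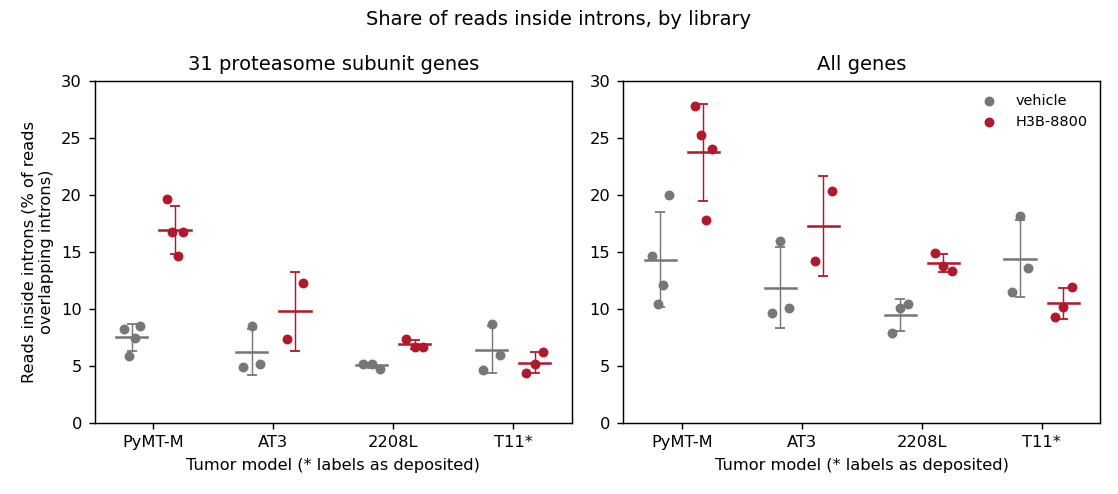
Percent of intron-overlapping reads that lie inside introns, for each library, pooled over the 31 proteasome subunit genes (left) and over all genes (right), by tumor model and treatment; points are libraries, bars the mean and lines the SD. For the proteasome genes, the 4 PyMT-M tumors with H3B-8800 sit between 14.6% and 19.7%, above all PyMT-M vehicle tumors.

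Intron by intron, edgeR's quasi-likelihood test with Benjamini-Hochberg adjustment over all 52042 introns called 138 of the 202 proteasome introns higher and 2 lower in PyMT-M at an adjusted p under 0.05, where 60.3% of all introns tested were called, 54.7% higher and 5.68% lower. That is 68.3% of the proteasome introns. In AT3, 49 were higher and 0 lower (28 and 0 by limma, with 75 at an unadjusted p under 0.05), or 24.3% higher against 19.4% of all introns. In 2208L, 54 were higher and 1 lower, or 26.7% higher against 21% of all introns, of which 0.534% were lower. In T11, the libraries labelled H3B-8800 were higher in 0 of these introns and lower in 37 (0 and 21 by limma, with 58 at an unadjusted p under 0.05), or 18.3% lower against 19.6% of all introns, of which 20.4% were called in either direction. The proteasome shares lay near those of all introns in AT3, 2208L and T11 and somewhat above them in PyMT-M. For the counts at an unadjusted p, no share of all introns is given here. PyMT-M has the most tumors, so its larger count is not a measure of a larger effect. Some counts leaned on single tumors: in AT3 17 introns were higher without vehicle replicate 1, 18 without vehicle replicate 3 and 10 without H3B-8800 replicate 2, and in 2208L 24 without vehicle replicate 1 and 35 without H3B-8800 replicate 1. In T11, 8 were lower without the library labelled vehicle replicate 2, and 13, 13 and 24 without replicates 1, 2 and 3 of those labelled H3B-8800. Without all 6 libraries high in muscle or B cell markers, 10 passed in 2208L and 10 in T11.

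Nearly every member had at least 1 intron that rose in PyMT-M: 30 of 31 genes, all but Psmb7. The number was 23 genes in AT3 and 20 in 2208L. As shares, these are 96.8%, 74.2% and 64.5% of the members, against 92.3%, 63.1% and 66.4% of the 3169 genes with 5 to 8 tested introns, the range between the quartiles of the members. In Psmb7 only 3 of its 7 introns were tested, where the median member had 6 tested. Among the core particle genes, 30 of 47 alpha ring introns, 13 of 20 introns of the structural beta subunits and 6 of 10 introns of the catalytic subunits rose in PyMT-M. For the regulatory particle, 34 of 46 introns of the ATPases, 22 of 29 of the other base genes and 33 of 50 of the lid genes did. In 2208L, 20 of 50 lid introns and 15 of 29 introns of Psmd1, Psmd2 and Psmd4 rose, against 6 of 47 in the alpha ring and 0 of 10 in the catalytic subunits. The AT3 counts were 13 and 14 for the lid and these base genes, and 6 and 1 for the alpha ring and the catalytic subunits. These differences between roles were not tested.

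The same 30 introns, from 15 genes, rose in PyMT-M, AT3 and 2208L, 14.9% of the proteasome introns tested against 10.7% of all introns. All 30 had a log2 change below 0 in T11 as labelled, and 23 of them passed the test there. Summed over a gene's introns, the PyMT-M percent inside introns went from a mean of 6.79% to 35.4% in Psmd4, which encodes a ubiquitin receptor. It went from 6.36% to 32.1% in the structural core gene Psmb3, from 7.90% to 31% in the lid gene Psmd3, and from 6.40% to 28.7% in Psmd12, also of the lid. In Psmb7, a catalytic subunit gene, it stood at 2.84% with vehicle and 3.92% with the drug.

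Intron 5 of Psmd14, which encodes the lid's deubiquitinase, had the largest mean rise over the models (chr2:61761095-61763836, plus strand, 2742 bases). It held 2.67%, 2.79%, 3.36% and 5.63% of its reads in PyMT-M vehicle tumors and 61.7%, 56.2%, 51.4% and 47.6% with H3B-8800. In AT3 it held 2.56%, 3.39% and 1.09% with vehicle and 25.7% and 50.7% with the drug, and in 2208L 0.813%, 4.14% and 0.784% against 38.1%, 35.7% and 34.3%. Every treated tumor of these models lay above every vehicle tumor. The log2 change relative to the gene's spliced reads was 5.13 ± 0.57 (SE) in PyMT-M, with adjusted p = 8.21e-09 in edgeR's quasi-likelihood test, 4.73 in AT3 (adjusted p = 2.47e-05) and 4.75 in 2208L (adjusted p = 1.09e-05). In T11 the libraries labelled vehicle held 14.0%, 44.4% and 32.4%, and those labelled H3B-8800 held 3.33%, 6.18% and 8.48%, a log2 change of -2.76 (adjusted p = 0.0007 in the same test). A non-coding transcript of Psmd14 has an exon in this intron, and a microRNA gene, Gm22403, lies in it on the other strand. The 142 to 710 reads behind each of these percentages cannot be divided among them.

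Intron 8 of the lid gene Psmd12 (chr11:107493516-107494629, plus strand, 1114 bases) held 18.6%, 7.99%, 12.2% and 10.6% in PyMT-M vehicle tumors and 64.5%, 65.5%, 53.3% and 67.0% with H3B-8800. In AT3 it held 9.81%, 18.6% and 9.41% against 32.7% and 65.0%, and in 2208L 2.89%, 11.6% and 8.79% against 37.6%, 36.8% and 45.5%. Again no treated tumor overlapped the vehicle tumors of its model. The log2 changes were 3.64 in PyMT-M (adjusted p = 6.9e-08), 3.18 in AT3 (adjusted p = 0.000205) and 2.85 in 2208L (adjusted p = 0.000267), by edgeR's test. In T11 the libraries labelled vehicle stood at 24.5%, 56.4% and 42.2% and those labelled H3B-8800 at 9.402%, 10.3% and 13.3%. Relative to the intron's own overlapping reads the log2 change was 2.34 in PyMT-M and 1.99 in AT3. The AT3 call rests on both treated tumors, and without AT3 H3B-8800 replicate 2 the log2 change was 1.93 (adjusted p = 0.0597).

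Intron 8 of Psmc3, an ATPase gene (chr2:91057061-91057764, plus strand, 704 bases), held 26.5%, 11.8%, 25.1% and 23.1% with vehicle and 70.3%, 70.2%, 62.8% and 63.9% with H3B-8800 in PyMT-M. In AT3 the values were 18.6%, 34.7% and 24.1% against 51.5% and 61.9%, and in 2208L 6.02%, 11.7% and 10.2% against 25.5%, 23.4% and 22.9%. The groups were apart in each model, though the treated 2208L tumors lay within the range of untreated PyMT-M tumors. The log2 changes were 2.71, 1.81 (adjusted p = 0.00401) and 1.65 (adjusted p = 0.00512) by edgeR's test, and 1.63 in PyMT-M and 1.13 in AT3 relative to the intron's own overlapping reads. Intron 2 of Psmb3, which encodes a structural beta subunit (chr11:97703973-97706797, 2825 bases), was almost absent with vehicle and present with the drug. It held 2.56%, 0.685%, 0.560% and 1.46% against 57.9%, 34.4%, 38.7% and 39.2% in PyMT-M and 0.251%, 1.79% and 0.862% against 11.7% and 27.3% in AT3. In 2208L no read lay in it in 1 vehicle tumor, the others held 1.63% and 2.27%, and the treated tumors held 15.6%, 16.5% and 15.6%. In T11, 15.5%, 25.8% and 26.8% in libraries labelled vehicle stood against 1.31%, 1.73% and 0.866% in those labelled H3B-8800.

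Some introns of the family held a large share of intronic reads without the drug. Intron 2 of the lid gene Psmd6 (chr14:14116971-14119986, minus strand, 3016 bases) held 48.8%, 25.5%, 45.7% and 38.1% in PyMT-M vehicle tumors and 75.2%, 68.7%, 66.8% and 67.1% with the drug. In 2208L it held 5.19%, 23.2% and 17.5% against 52.2%, 46.9% and 51.3%. It rose past the test in both (in 2208L not without the libraries high in muscle or B cell markers, log2 1.87, adjusted p = 0.0662), while AT3 (adjusted p = 0.227) and T11 (log2 -0.29, adjusted p = 0.767) did not pass by edgeR's test. Intron 6 of Psmd3, which holds annotated exons, went from 34.1%, 20.5%, 32.6% and 33.3% to 74.7%, 74.6%, 68.3% and 69.5% in PyMT-M. In 2208L it went from 9.82%, 24.3% and 16.0% to 44.4%, 40.1% and 42.7%, and in AT3, at 36.7%, 50.6% and 27.8% against 43.7% and 64.4%, it did not pass (adjusted p = 0.119 by the same test). Intron 10 of Psmd3 rose from 14.2%, 10.6%, 14.7% and 15.5% to 60.4%, 50%, 47.1% and 46.4% in PyMT-M, and intron 6 of Psmd13 from 9.51%, 2.44%, 9.18% and 8.65% to 55.8%, 49.1%, 43.4% and 46.2%. Psmd6 intron 2, Psmd3 intron 10 and Psmd13 intron 6 hold annotated exons too, or parts of them. Reads of these exons count as intronic and cannot be told from other retention.

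**Figure D2:**
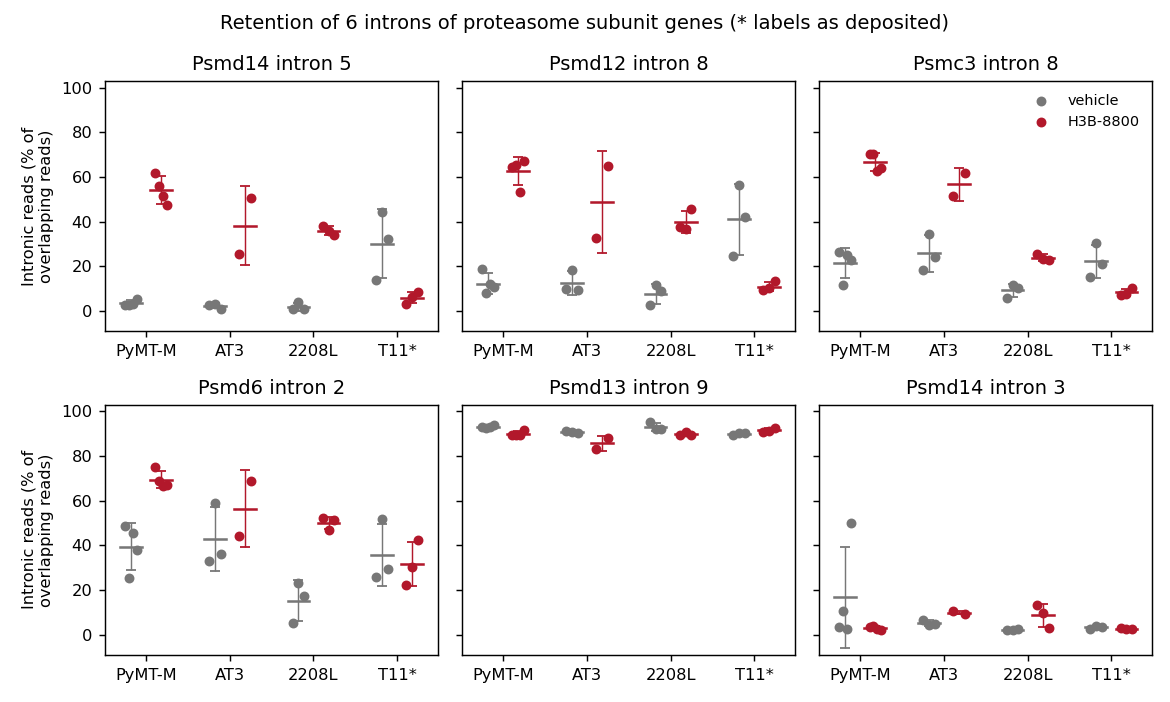
Percent of overlapping reads that lie inside each of 6 proteasome introns, by tumor model and treatment; points are libraries, bars the mean and lines the SD. The upper row and the lower left panel show introns that were retained more with H3B-8800 in at least 2 models, and the last 2 show an intron near 90% in every group and one where a single vehicle tumor stands at 50.1%.

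Introns that fell with the drug were few and each had a feature of its own. Intron 9 of the lid gene Psmd13 (chr7:140890621-140894480, plus strand, 3860 bases) holds a processed pseudogene, Gm15542, on the same strand and had the highest percent of the family. It stood at 95.3%, 92.0% and 92.3% in 2208L vehicle tumors and 89.4%, 90.8% and 89.6% with H3B-8800, a log2 change of -0.81 ± 0.29 (adjusted p = 0.039 by edgeR's test). Relative to the intron's own overlapping reads, instead of the gene's spliced reads, the change was -0.05 (adjusted p = 0.67), and the call was also lost without 2208L vehicle replicate 1 (log2 -0.49, adjusted p = 0.297). In PyMT-M it stood at 93.1%, 92.7%, 93.1% and 94.0% with vehicle and 89.4%, 89.5%, 89.3% and 91.8% with the drug (log2 -0.46, adjusted p = 0.104 by edgeR's test). In AT3 it was at 91.4%, 90.9% and 90.2% against 83.4% and 88.1% (log2 -0.36, adjusted p = 0.453 by the same test). The treated tumors were thus lower without overlap in all 3 models, and the mean effect of the 3 passed (log2 -0.54, adjusted p = 0.00514 by edgeR's test). In T11 as labelled it was higher with H3B-8800, at 90.9%, 91.4% and 92.8% against 89.2%, 90.3% and 90.3% (log2 0.19, not called). Intron 3 of Psmd14 (chr2:61722762-61760635, 37874 bases) held 3.67%, 10.5%, 2.58% and 50.1% in PyMT-M vehicle tumors and 3.48%, 4.15%, 2.55% and 2.10% with the drug. The fall of 2.99 on the log2 scale (adjusted p = 0.000537 by edgeR's test) rested on vehicle replicate 4, without which the log2 change was -0.83 (adjusted p = 0.23). Intron 5 of Psmb7 (chr2:38613491-38633850, minus strand, 20360 bases), at 1.56%, 2.97%, 0.986% and 8.65% against 1.69%, 0.581%, 1.57% and 0.229%, likewise lost its call without the same tumor (log2 -0.89, adjusted p = 0.241). An antisense pseudogene, Gm13586, lies in it.

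The share of introns that rose in PyMT-M was lower among long introns, in the family as over all introns. Of the family's introns, 10 of 14 of up to 120 bases rose (71.4%, against 77.9% of all introns of that length), 23 of 27 of 121 to 300 bases (85.2% against 71.1%) and 44 of 60 of 301 to 1000 bases (73.3% against 66.7%). In the longer classes 47 of 69 of 1001 to 3000 bases rose (68.1% against 58.8%) and 12 of 24 of 3001 to 10000 bases (50% against 42.5%). Of 8 introns over 10000 bases 2 rose and 2 fell, while of all introns of that length 10.9% rose and 35.7% fell. By position, 17 of 24 first introns rose in PyMT-M (70.8% against 40.4% of all first introns), 106 of 148 internal introns (71.6% against 58.3%) and 15 of 30 last introns (50% against 46.9%). In 2208L 45 of 148 internal introns rose (30.4% against 22.7%) and 3 of 30 last introns (10% against 15.5%). The differences between these classes were not tested. Position and length were not separated from depth, since longer introns collect more reads.

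Gene levels moved far less than retention. In PyMT-M, 2 of the 31 genes rose and 1 fell with H3B-8800, where 24.8% of all 13001 genes tested were called (10.2% higher and 14.6% lower). At an unadjusted p under 0.05 the members numbered 8, beside 4822 of the 13001 genes. DESeq2 called 4 members higher and 1 lower. The groups did not overlap for 10 members that were higher and 2 that were lower, against 13% and 16% of all genes. The median log2 change was 0.15, with 25 of 31 above 0, against 0.02 over all genes and 0.03 over 3584 genes at least as highly expressed as the lowest member. All 7 alpha ring genes had values above 0 (median 0.25) without any passing the test.

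Psmd11, a lid gene whose product is known to set how much assembled proteasome a cell holds, rose most. Its level was 175, 183, 181 and 162 CPM in PyMT-M vehicle tumors and 268, 271, 304 and 248 CPM with H3B-8800. Every treated tumor was above every vehicle tumor, and the means were 272.8 ± 23.1 and 175.3 ± 9.22 CPM (SD, n = 4 each). The fold was 1.56, or 0.64 ± 0.10 on the log2 scale (adjusted p = 0.000119 in edgeR's quasi-likelihood test over all genes). The call held without each tumor in turn, with a log2 change of 0.58 to 0.70, and at 0.40 (adjusted p = 0.0213) when all overlapping reads were counted in place of spliced reads. In 2208L its level was 265, 219 and 251 CPM with vehicle and 310, 300 and 307 CPM with the drug, again without overlap, a log2 change of 0.32 ± 0.11 that did not pass (adjusted p = 0.0778 by edgeR, 0.0305 by DESeq2). In AT3, at 191, 187 and 207 CPM against 217 and 193 CPM, the groups overlapped (log2 0.07).

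Psmc1, an ATPase gene of the base, rose from 223.5, 229.5, 252.6 and 252.5 CPM to 307, 300, 361 and 300 CPM in PyMT-M, a log2 change of 0.40 ± 0.12 (adjusted p = 0.022 by edgeR's test). The groups did not overlap, but the call was lost without H3B-8800 replicate 3, the highest tumor (log2 0.34, adjusted p = 0.0832), and when libraries were scaled by their totals alone (log2 0.23, adjusted p = 0.0749). Without the libraries high in muscle or B cell markers, which removes 2 treated PyMT-M tumors, it stood at 0.51 (adjusted p = 0.053). Psmd7, a lid gene, fell from 160, 160, 164 and 143 CPM to 119, 110, 124 and 127 CPM, a log2 change of -0.39 ± 0.12 (adjusted p = 0.0243 by edgeR's test). In the same tumors the percent of its reads inside introns went from a mean of 7.32% to 28.7%. Counted as all overlapping reads, spliced or not, the change of Psmd7 was -0.32 (adjusted p = 0.0919), and 5 of the 8 fits that left out a single PyMT-M tumor did not call it.

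Several members had separate groups in PyMT-M without passing the test. The alpha ring gene Psma4 stood at 222.3, 252.2, 254.7 and 274.3 CPM with vehicle and 306, 318, 335 and 292 CPM with the drug (adjusted p = 0.0509 by edgeR). The catalytic gene Psmb7 stood at 302, 340, 361 and 370 against 460.9, 436, 490.9 and 386.3 CPM (adjusted p = 0.0819). The ATPase gene Psmc6 was on the other side, at 393, 382, 377 and 362 against 307, 312, 298 and 309 CPM (adjusted p = 0.0835). Psmb5, which encodes the chymotrypsin-like catalytic subunit, overlapped between the groups, at 74.5 ± 14.1 CPM with vehicle and 86.0 ± 10.6 CPM with H3B-8800 (SD, n = 4 each).

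**Figure D3:**
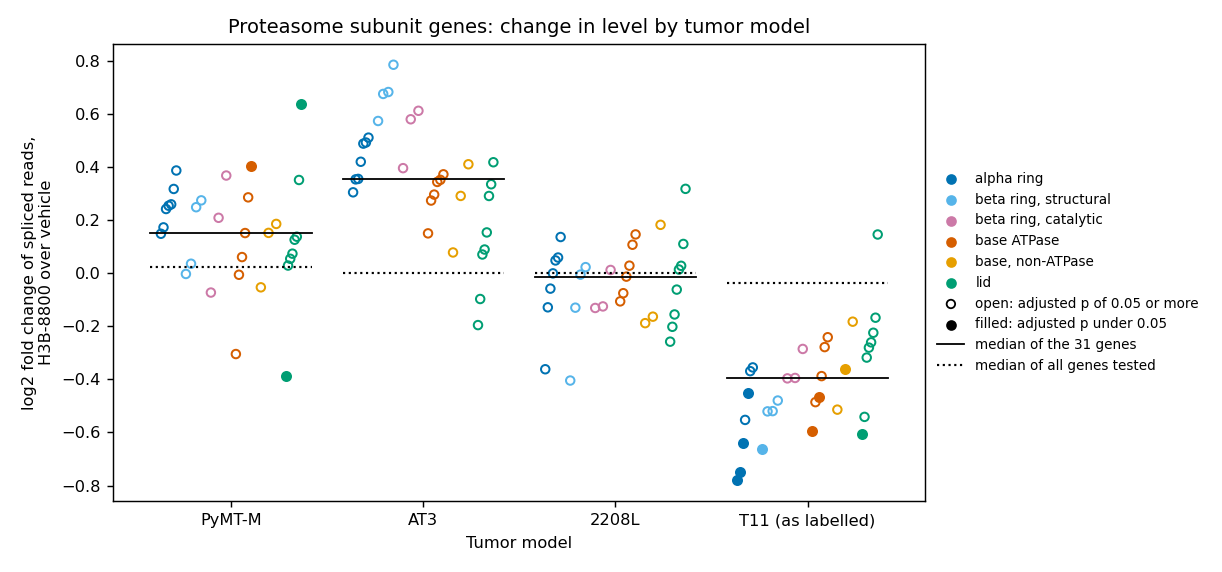
Log2 fold change of the spliced reads of each proteasome subunit gene with H3B-8800 over vehicle, by tumor model and role; filled points have an adjusted p under 0.05, solid lines mark the median of the 31 genes and dotted lines that of all genes. The medians of the 31 genes are 0.15 in PyMT-M, 0.35 in AT3, -0.01 in 2208L and -0.40 in T11 as labelled.

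In AT3, 0 of 31 members passed in either direction by edgeR's test, where 0.3% of all genes did (0.123% higher and 0.177% lower), and DESeq2 called 0 as well. At an unadjusted p under 0.05 there were 11, beside 1690 of the 13001 genes. The median log2 change was 0.35, with 29 of 31 above 0, against 0 over all genes and 0.14 over genes of at least the level of the lowest member. The 2 treated tumors differed: Psmb4, a structural beta gene, stood at 905 and 389 CPM with the drug and 314, 333 and 479 CPM with vehicle (log2 0.79 ± 0.31, adjusted p = 0.28 by edgeR's test). Psmb1 was at 913 and 478 CPM against 401, 393 and 506 CPM (log2 0.68 ± 0.24, adjusted p = 0.222 by the same test). For both, only replicate 1 lay above the vehicle tumors. Without replicate 2 the fit called 9 members higher, among them Psmb4, Psmb1 and all 3 catalytic genes. Over the 31 genes, AT3 H3B-8800 replicate 1 was above a gene's own mean in 28, and the groups did not overlap in 3 (Psma4, Psmc2 and Psmd2) against 11.3% of all genes higher without overlap.

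In 2208L, 0 of 31 members passed by edgeR's test, where 10.3% of all genes did (4.67% higher and 5.67% lower). At an unadjusted p under 0.05 there was 1, Psmd11, beside 3436 of the 13001 genes. Psmd11 was also the 1 member called by DESeq2. The median log2 change was -0.01, with 13 of 31 above 0. The groups did not overlap for Psmd11, higher, and for Psmd2, Psmd3 and Psmd14, lower, against 21% and 20.8% of all genes. Psmd2, which encodes the largest scaffold of the base together with Psmd1, stood at 713, 661 and 662 CPM with vehicle and 577, 594 and 617 CPM with H3B-8800 (adjusted p = 0.288 by edgeR's test).

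In T11, 9 members were lower and 0 higher in the libraries labelled H3B-8800, where 11.7% of all genes were called, 6.66% higher and 5.07% lower. They were Psma2, Psma4, Psma5, Psma6, Psmb1, Psmc1, Psmc2, Psmd1 and Psmd11. The groups did not overlap for 19 members that were lower and 0 that were higher, against 12.2% and 14% of all genes. The median log2 change was -0.40, and 1 gene, Psmd7, was above 0. Over all genes the median was -0.04, and over the 3584 genes of at least the level of the lowest member it was -0.17, with 2341 of these below 0. Psmd11 stood at 336, 253 and 277 CPM in the libraries labelled vehicle and 199, 182 and 188 CPM in those labelled H3B-8800 (log2 -0.61 ± 0.11, adjusted p = 0.0021 by edgeR's test). Psma5, an alpha ring gene, stood at 778, 473 and 530 against 339, 372 and 327 CPM (log2 -0.78, adjusted p = 0.0128). For both genes the groups were apart, with replicate 1 of the libraries labelled vehicle the highest. That library was above a gene's own mean in 29 of 31 members, and without it 2 members were called lower, Psmc1 and Psmd11. Without replicate 1, 2 or 3 of those labelled H3B-8800 the counts were 4, 5 and 1, and with overlapping reads in place of spliced reads, or with only the T11 groups in the fit, 0.

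**Figure D4:**
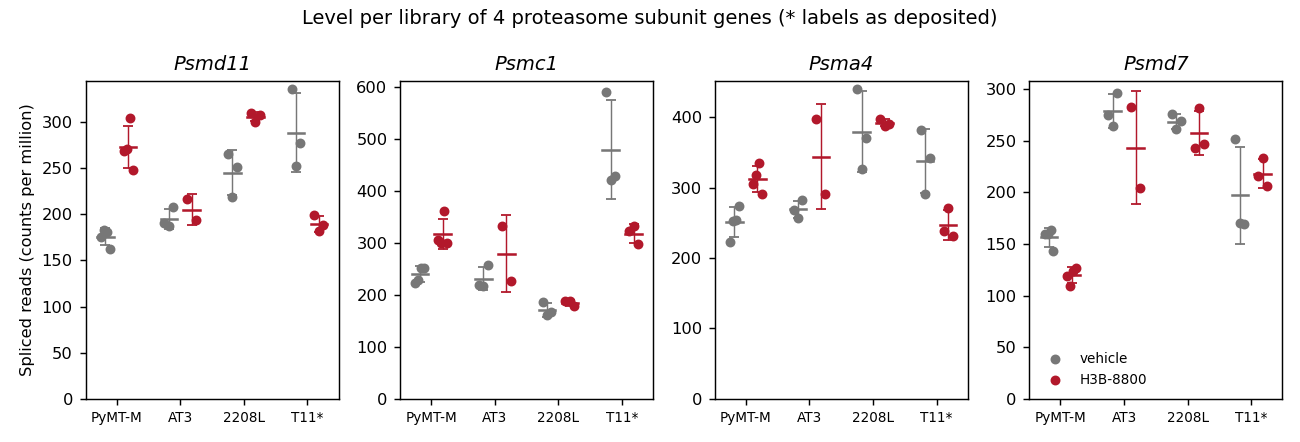
Spliced reads in CPM of Psmd11, Psmc1, Psma4 and Psmd7 in each library, by tumor model and treatment; points are libraries, bars the mean and lines the SD. Psmd11 with H3B-8800 is above vehicle without overlap in PyMT-M and 2208L, and Psmd7 is below vehicle in PyMT-M.

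The mean drug effect of PyMT-M, AT3 and 2208L rests on the same tumors as the comparisons above. It called 5 members higher and 0 lower, where 23.9% of all genes were called. These were Psmd11 (log2 0.34 ± 0.07, adjusted p = 0.000788 by edgeR's test), Psma6 (0.34), Psmc1 (0.26), Psma4 (0.24) and Psmc2 (0.24). When all overlapping reads were counted, the 5 were not called, Psmd11 stood at 0.16 (adjusted p = 0.172), and Psmd7 was the 1 member called, lower at -0.26 (adjusted p = 0.0402). Without AT3 H3B-8800 replicate 1 there was 1 higher and 1 lower, and without AT3 H3B-8800 replicate 2 14 higher. The count was 3 without PyMT-M H3B-8800 replicate 3, AT3 vehicle replicate 2 or 2208L H3B-8800 replicate 1, and 2 without 2208L vehicle replicate 3.

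The drug effects of PyMT-M and AT3, models of 1 mouse strain with opposite response labels, differed for 0 of 31 members by edgeR's test, where 1.1% of all genes differed. At an unadjusted p under 0.05 there were 2, beside 2037 of the 13001 genes. DESeq2 called 1, Psmd11, whose effect was 0.57 ± 0.16 higher in PyMT-M on the log2 scale (adjusted p = 0.0861 by edgeR, 0.0157 by DESeq2). Between PyMT-M and 2208L, both labelled responders, 0 members differed by edgeR's test and 0 by DESeq2 against 1.92% of all genes (0.615% higher in PyMT-M). The members at an unadjusted p under 0.05 numbered 3, beside 2172 of the 13001 genes. For introns, 0 of 202 differed between PyMT-M and AT3 by edgeR's test (0.00192% of all introns) and 0 by limma. There were 28 at an unadjusted p under 0.05, a count with no share of all introns given here. Between PyMT-M and 2208L 1 differed (0.115% of all introns), Psmd14 intron 3 with its single high vehicle tumor. That 1 was lost without any of the 8 PyMT-M tumors but vehicle replicates 1, 2 and 3, and without any 2208L tumor; for PyMT-M and AT3, 2 introns differed without PyMT-M vehicle replicate 1 and 1 without vehicle replicate 3.

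Levels of the members were next compared with each other and between vehicle tumors of different models. Levels per intron divide a gene's CPM by its number of listed introns, whether or not each is much used. How well this scale allows genes to be compared was not tested. On it, Psmb1 had the highest mean over vehicle and treated tumors at 97.4 CPM. Psmb4 came next at 80.1 CPM, followed by the alpha ring gene Psma2 at 75.5 CPM. Psmd11 (18.1 CPM) and Psmd1 (18.2 CPM) were lowest and did not differ beyond their spread. In vehicle tumors, Psmb1 ranked highest in PyMT-M (74.1 ± 14.4 CPM per intron), AT3 (86.7 ± 12.7) and T11 as labelled (152.1 ± 46.5), and Psmb4 in 2208L (162.9 ± 37.3). Core particle genes lay mostly above lid genes on this scale, with Psmb5, a gene of 2 introns, at 15.7 ± 2.68 CPM per intron in 2208L and 37.2 ± 7.08 in PyMT-M.

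**Figure D5:**
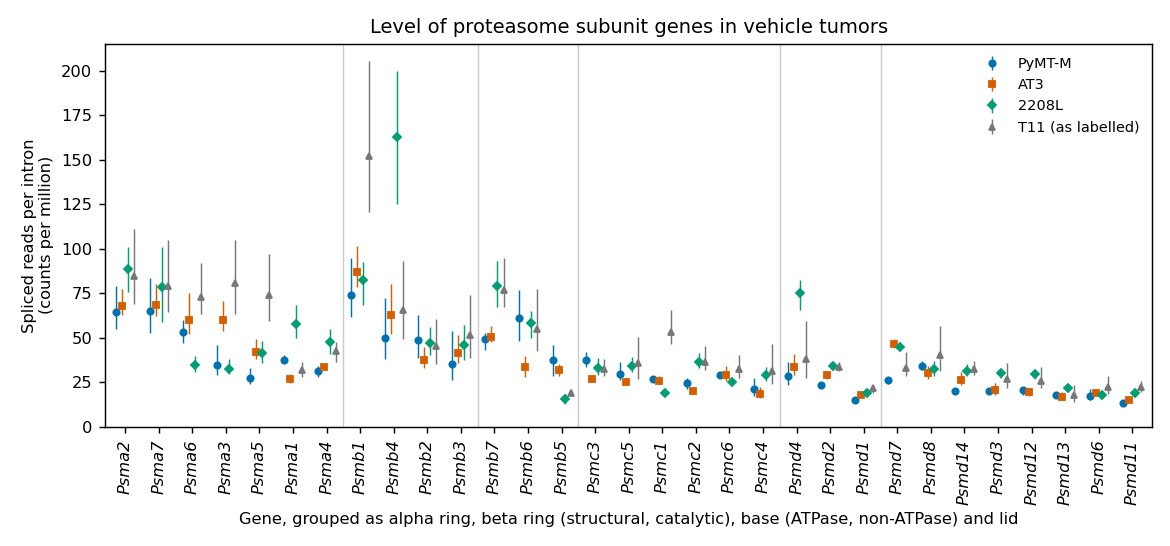
Spliced reads per intron, in CPM, of each proteasome subunit gene in vehicle tumors of the 4 models, grouped by role; points are means and lines run from the lowest to the highest library. Psmb1 in T11 as labelled (152.1) and Psmb4 in 2208L (162.9) stand highest.

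Between vehicle tumors of the C57BL/6 models, 3 members were higher and 6 lower in PyMT-M than in AT3, where 60% of all genes were called. Psmd7, of the lid, stood at 160, 160, 164 and 143 CPM in PyMT-M and 275, 264 and 297 CPM in AT3, without overlap, as were 29.6% of all genes (log2 -0.83 ± 0.13, adjusted p = 1.21e-05 by edgeR's test). Psma3 (-0.79), Psma5 (-0.63), Psmd14 (-0.39), Psmd2 (-0.31) and Psmd1 (-0.25) were lower too. Higher in PyMT-M were Psmb6 (0.86), a catalytic gene, at 241, 296, 297 and 383 against 163, 139 and 199 CPM, Psma1 (0.50) and Psmc3 (0.48).

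Between the Balb/c models, 4 members were higher and 6 lower in 2208L vehicle tumors than in the T11 libraries labelled vehicle, where 45.6% of all genes were called. Psmc1 was at 186, 161 and 166 CPM in 2208L and 590, 420 and 428 CPM in T11 (log2 -1.49 ± 0.15, adjusted p = 5.04e-08 by edgeR's test). Psma3 was at 379, 297 and 300 against 1047, 631 and 743 CPM (log2 -1.31), and Psma6 at 240, 184 and 197 against 553, 379 and 383 CPM (log2 -1.08). Psmb1 (-0.88), Psma5 (-0.84) and Psmc6 (-0.37) were lower as well. Psmb4 was higher at 1198, 750 and 983 against 560, 326 and 294 CPM (log2 1.31 ± 0.29, adjusted p = 0.000777), as were Psmd4 at 661, 525 and 615 against 473, 218 and 227 CPM (log2 0.97 ± 0.24, adjusted p = 0.00246), Psma1 (0.85) and Psmd7 (0.45). With the T11 libraries labelled H3B-8800 in the place of those labelled vehicle, 10 members were higher and 2 lower. The share of all genes called in that second comparison is not given here, so these counts have no background beside them. Psmc1 (-0.89) and Psma3 (-0.76) stayed lower and Psmb4 (1.79), Psmd4 (1.49) and Psma1 (1.2) higher, while Psma5, Psma6, Psmb1, Psmc6 and Psmd7 were not called.

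Levels of the members went together from library to library. Over the 465 pairs of members and 25 libraries, the median correlation of log2 levels was 0.50, with 54 pairs below 0. For deviations from the group means it was 0.84, with 0 pairs below 0, a description of points that share a library and its scaling. The SD of log2 CPM over the libraries had a median of 0.33 for the members and 0.65 for 10554 genes with reads in every library, of which 8.49% varied less than the median member. T11 vehicle replicate 1, AT3 H3B-8800 replicate 1 and 2208L vehicle replicate 1 were high in 29, 28 and 25 of the 31 genes.

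As the members moved together, their promoters were searched for the letters TGACNNNGC, the core of the antioxidant response element, a motif bound by the factors of the Nfe2l1 and Nfe2l2 family, which are known to drive proteasome genes. The search covered both strands of the 300 bases from 250 before to 50 after each start in RefSeq on GRCm38.p6. Promoters of 25 of the 31 genes were at hand, with 27 starts. The letters were in 4 of them (14.8%), those of Psmb5, Psmb6, Psmc6 and Psmd12, and in 12.4% of 32851 promoters of all genes. The letters CCAAT were in 10 (37.0%) against 37.4%. The stretches around the match are shown for 3 of these genes, 5′ to 3′ on the strand of the gene, with the match in capitals, which in Psmc6 reads on the opposite strand.
Psmb5, chr14:54618014-54618062, minus strand: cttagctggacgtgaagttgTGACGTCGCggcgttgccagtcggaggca
Psmb6, chr11:70525328-70525376, plus strand: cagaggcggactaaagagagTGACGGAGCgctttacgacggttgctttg
Psmc6, chr14:45329577-45329625, plus strand: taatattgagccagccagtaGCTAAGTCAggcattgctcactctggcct

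Other genes of the pathway were counted by list, each with the test over all genes. Of all genes tested, 10.2% were higher and 14.6% lower in PyMT-M, and 4.67% higher and 5.67% lower in 2208L. In AT3 0.3% were called in either direction, and in T11 as labelled 11.7%. At an unadjusted p under 0.05, AT3 had 1690 of the 13001 genes. Whether the lists, each of few genes, differ from these shares was not tested. Of 8 assembly chaperone and related genes, 1 was higher and 2 lower in PyMT-M, 1 higher and 4 lower in 2208L, and 0 called in AT3 by edgeR's test, with 2 there at an unadjusted p under 0.05. Psmg3, an assembly chaperone of the core, fell from 14.5, 16.4, 15.2 and 21.7 CPM to 7.20, 3.69, 5.03 and 6.21 CPM in PyMT-M (log2 -1.61) and from 23.9, 19.1 and 20.7 CPM to 5.05, 6.95 and 6.96 CPM in 2208L (log2 -1.74). In both models no treated tumor overlapped the vehicle tumors, and the percent of its reads inside introns went from a mean of 13.2% to 48.9% and from 11.7% to 44.5%. In T11 it stood at 14.5, 5.55 and 4.89 CPM in libraries labelled vehicle and 20.98, 21.5 and 17.4 CPM in those labelled H3B-8800 (log2 1.28). AI314180, the mouse gene of the proteasome adaptor Ecm29, fell too (log2 -0.80 in PyMT-M and -0.70 in 2208L), with 11.1% to 38.3% and 4.24% to 16.9% inside introns. Psmg1 (-0.89) and Psmg2 (-0.87), which form a chaperone pair, fell in 2208L, where their percent inside introns was 20.8% and 21.4%, and 15.2% and 12.6%, with vehicle and drug. Pomp, the maturation chaperone, rose in PyMT-M (0.57) and Psmd10, also known as gankyrin, in 2208L (0.89).

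Of 6 genes of the Nfe2l1 pathway, 2 rose in PyMT-M, Mafk (1.08) and Nfe2l2 (0.55), and Mafk also rose in 2208L (1.25). Of all genes tested, 10.2% rose in PyMT-M and 4.67% in 2208L. Among 11 genes of ubiquitin, its activation and downstream processing, Vcp (0.51), the unfolding ATPase, and Uba1 (0.42) rose in PyMT-M, and Uba6 (-1.15) and Tpp2 (-0.44) fell. Of 8 shuttle receptor and proteasome-bound enzyme genes, Ubqln1 (0.46) rose in PyMT-M. The 5 genes of the immunoproteasome and its activator had 0 called by edgeR's test in PyMT-M, AT3 and 2208L. At an unadjusted p under 0.05 these models had 0, 2 and 0 of them, beside 4822, 1690 and 3436 of 13001 genes. In T11, the libraries labelled H3B-8800 held more of Psmb8 (log2 1.89) and Psmb9 (2.27), both past the test. Psmb8 stood at 124, 93.0 and 116 CPM there and at 22.7, 46.2 and 20.8 CPM in the libraries labelled vehicle. T cell markers (6 of 9 called, median log2 change 4.75) and B cell markers (5 of 8, median 6.33) were higher in the same comparison. Without replicate 2 of the libraries labelled H3B-8800, where these markers summed to 126.1 and 164.3 CPM, 1 T cell and 0 B cell markers were called, while Psmb8 (2.04) and Psmb9 (2.33) were still called higher by edgeR's test. In the other libraries labelled H3B-8800 the T cell markers summed to 9.27 and 15.1 CPM against 2.30 to 4.69 CPM in those labelled vehicle, and their part in the subunits' difference was not tested. In vehicle tumors they were higher in PyMT-M than in AT3 (1.63 and 1.04) and higher in 2208L than in the T11 libraries labelled vehicle (2.39 and 2.09). These catalytic subunits are interferon-induced, and immune cells express them highly.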

How the data were processed

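For each of 25 tumor libraries, a table lists 2 values per intron: reads that lie within it and all reads that overlap it. Both are counts as deposited by the authors, with no normalization, and a further deposited column holds the RPKM of the intronic reads, which was used only to read back the library total by which the authors divided (41 to 78 M reads). The aligner was HISAT2 2.0.4 per the submitters' processing notes, which name mm10 and hg38. What tool counted the reads, and from which annotation release, is not given in the sources used here. Nor is how reads shared with processed pseudogenes, or reads across an exon-intron edge, were handled. Of the introns, 99.9% match GENCODE M21 on GRCm38, and 22 introns without all values were not used.

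Spliced reads (overlapping minus intronic) were summed per gene. Genes that reached a CPM of 1 in 2 or more libraries were fitted in edgeR 4.0.16 (R 4.3.3, TMM scaling, robust quasi-likelihood test) over all 8 groups, and intronic reads likewise with an offset of log(spliced reads of the gene + 0.5), for introns with means of at least 5 intronic and 10 spliced reads. "Called", "rose" and "fell" mean an adjusted p under 0.05 (Benjamini-Hochberg over all genes or introns). Scaling by totals alone moved the median log2 change of all genes to -0.14 in PyMT-M, -0.20 in AT3 and 0.17 in T11. Alternatives included DESeq2 1.42.0 and limma 3.58.1. The tests were tested on simulated counts. Groups, comparisons and sample labels are as the titles give them. The series design calls the tumors biological replicates, with no animal named per library.

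The member genes, gene lists and comparisons were chosen with earlier results of these data known. Per-library values are given for members called in a drug comparison (up to 4 rising and 4 falling), members called in the most comparisons, and those of highest and lowest level per intron. For introns they are given for up to 8 rising in at least 2 of PyMT-M, AT3 and 2208L with the largest mean rise, up to 4 falling, and that of highest percent in vehicle tumors. Other members with per-library values (Psma4, Psmb7, Psmc6, Psmb4, Psmd2) and Psmb3 intron 2 were chosen after their values were seen, as were the introns whose sequence is printed. A pathway gene and an intron sequence are not reported here.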

Additional observations from a re-analysis of the deposited data

Results flagged for a closer look

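In 88 groups of 4 tumors (genes and introns described here), 6 held a tumor far from the other 3, where chance gives about 1 in 20 groups. Psmc1 stood at 361 CPM in PyMT-M H3B-8800 replicate 3, with the others at 299.9 to 307 CPM, and the Psmc1 call was lost without this tumor. Psmc3 stood at 410 CPM in PyMT-M H3B-8800 replicate 4, below 469 to 478 CPM in the others. PyMT-M vehicle replicate 2 was low in Psmd3 intron 6, at 20.5% against 32.6% to 34.1%, and in Psmd13 intron 6, at 2.44% against 8.65% to 9.51%. Psmd13 intron 9 was at 91.8% in PyMT-M H3B-8800 replicate 4 and 89.3% to 89.5% in the others. Psmd14 intron 3 was at 50.1% in PyMT-M vehicle replicate 4, against 2.58% to 10.5%.

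The same intron differed in its drug effect between models: PyMT-M minus 2208L was -5.00 ± 1.1 on the log2 scale (SE, adjusted p = 0.048 by edgeR's quasi-likelihood test), and -2.84 (adjusted p = 0.139) without the high vehicle tumor.

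For 9 genes, every tumor labelled H3B-8800 of one model lay above, and every such tumor of another below, the tumors labelled vehicle. That is 29.03% of the members against 18.8% of all genes tested. In all 9, PyMT-M was higher and T11 as labelled lower, as in 3.2% of all genes, a pair and direction read off these same values. Among PyMT-M, AT3 and 2208L alone there was 1 such member (3.23%) against 4.1% of all genes. These differences were not tested against each other, and those with T11 follow its labels. As the difference of mean CPM, Psma1 was 66.7 higher in PyMT-M and -62.9 in T11, and Psma6 98.6 and -157. Psmb7 was 99.9 and -129, Psmc1 77.3 and -162, and Psmd1 40.4 and -115, in the same order. Psma4 was 61.8 in PyMT-M and 75.2 in AT3 against -91.1 in T11, and Psmc2 64.6 and 55.4 against -121. Psmd2 was 64.3 in PyMT-M and 129.6 in AT3 against -80.1 in T11 and -82.9 in 2208L. Psmd11 was 97.5 in PyMT-M and 60.5 in 2208L against -98.9 in T11.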

How the results depend on the processing

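Members called, both directions together, were recounted under each alternative. For gene levels, PyMT-M had 3, and 1 with all overlapping reads or without the 6 libraries high in muscle or B cell markers, and 5 with the median or upper quartile over introns, only the groups compared in the fit, DESeq2 or the submitters' library totals. T11 as labelled had 9: 0 with overlapping reads, only the groups compared or without those 6 libraries, 3 with the submitters' totals, 4 without a filter or with a replicate block, and 5 with library totals alone or the median or upper quartile over introns. The mean effect had 5: 1 with overlapping reads or without the 6 libraries, 2 with library totals alone, 3 with the median over introns. DESeq2 called 1 where edgeR called 0 in 2208L and in PyMT-M minus AT3. With the T11 libraries labelled H3B-8800 in place of vehicle, 2208L over T11 turned from -0.37 to 0.0149 for Psmc6 (adjusted p = 0.954) and from -0.23 to 0.37 for Psmd11 (adjusted p = 0.0133).

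For introns, PyMT-M had 140 and the mean effect 134, or 87 and 88 with at least 20 intronic reads, where fewer introns were tested. T11 had 37: 23 with at least 1 intronic read, 21 with limma, 22 with a replicate block and 10 without the 6 libraries. 2208L had 55: 32 with only introns without an exon (fewer tested) and 10 without the 6 libraries. AT3 had 49: 28 with limma, 31 with only the groups compared, 14 with a replicate block. The 1 intron that differed between PyMT-M and 2208L became 0 under the intron's own reads as offset, at least 20 reads, introns without an exon, limma, only the groups compared, the replicate block, and without T11 or the 6 libraries. Except where fewer features were tested, the cause was not tested.

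Leaving out 1 library gave 2 to 4 genes in PyMT-M, 0 to 9 in AT3, 0 to 0 in 2208L, 1 to 12 in T11, 2 to 14 for the mean effect, 0 to 0 for both differences between models, 6 to 9 for PyMT-M over AT3 and 9 to 12 for 2208L over T11. For introns it gave 119 to 146, 10 to 61, 24 to 55, 8 to 42 and 112 to 141 in the same order, and 0 to 2 and 0 to 1 for PyMT-M minus AT3 and minus 2208L. Single genes lost a call in 167 of the refits, gained one in 77, reversed in 2 and did neither in 5613; for single introns the counts were 67, 7, 0 and 1452. Replicate numbers did not pair the tumors (correlation of same-numbered deviations 0.12, 0.04, 0.48 and 0.12 in PyMT-M), so the block was not used. The fits without T11, without the 6 libraries and with the submitters' totals were chosen after seeing the data. Groups of 2 to 4 tumors limit what gene-level differences of this size could pass.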

Other observations

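Some members that differed between vehicle tumors lie near other genes that differed the same way, and others do not, a look at position that was chosen after the values were seen. All 3 members on chromosome 12, Psma3, Psma6 and Psmc1, were lower in 2208L than in the T11 libraries labelled vehicle, and of the 425 genes tested on that chromosome 49.2% were lower, against 22.5% of all genes, with a median log2 difference of -0.77. Within 2 Mb of Psmc1, 16 of 22 other genes were lower (median -1.37), and within 2 Mb of Psma3, 18 of 32 (median -0.81). Psmb4 and Psmd4, which were higher in 2208L, lie 146 kb apart on chromosome 3, and 39 of the 73 genes within 2 Mb of Psmb4 were higher (median 0.84). Psmd7, on chromosome 8, was lower in PyMT-M than in AT3, as were 28 of 43 genes within 2 Mb (median -0.73) and 39.6% of the genes of the chromosome, against 28% of all genes. Near Psmb6, which had the largest difference of PyMT-M over AT3, 30 of 106 genes within 2 Mb were higher (28.3% against 32.1% of all genes) and 24 lower, and near Psma1, higher in 2208L, 3 of 15 were higher and 3 lower. Neighbouring genes are not independent, no test was run, and copy number was not measured.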
